A study of Mus musculus with 15 samples.

Results

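Expression was compared among 3 groups of sorted mouse liver macrophages, and 68 of 13390 measured genes were collected because their level was highest in the CD11c-negative cells of diseased livers. A gene was a member when its mean log2 level in those cells lay at least 1 (2-fold) above the mean in healthy liver macrophages and also at least 1 above the mean in the CD11c-positive cells of the same diseased livers. The cut was met by 79 genes, and 11 well-known neutrophil genes among them (Mpo, Prtn3, Ctsg, Ngp, Camp, Ltf, Lcn2, S100a8, S100a9, Mmp8 and Mmp9) were set aside by name. All members were thus chosen from the measured values, so their height in the CD11c-negative cells of diseased livers is a description and was not tested.

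The labels give 5 arrays for each of 3 groups of male mice. The WT group held CD11c-negative macrophages of wildtype mice kept on standard diet, whose age the sources used here do not give. The CD11c-negative and CD11c-positive groups came from MC4R-KO mice, which lack the melanocortin 4 receptor throughout the body, became obese by overeating, and were given a Western diet for 20 weeks from the age of 8 weeks. Their labelled disease state is NASH (non-alcoholic steatohepatitis). Genotype and diet differ together between the WT group and both other groups, so their parts cannot be told apart. Livers were digested with collagenase, cells with high F4/80 were sorted by CD11c, and the RNA of 7 to 9 mice was pooled for a sample.

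Neutrophils mature in the bone marrow in steps, and the RNAs of their granule proteins are made early: those of the azurophil granules in promyelocytes, those of the secondary granules in myelocytes under the transcription factor C/EBP-epsilon. Mature neutrophils keep the proteins but have lost most of these RNAs. Kupffer cells, the resident macrophages of the liver, are known for scavenger receptors and iron handling rather than for granule proteins, and in steatohepatitis they are partly replaced by macrophages derived from monocytes, among them CD11c-positive cells that gather around dying fat-laden hepatocytes.

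Levels are given as log2 of the processed spot signal, from which the array's 75th percentile was subtracted, so 0 means a signal equal to that percentile and levels of different genes are not compared with each other. Spots well above background made up 45.8% to 58.0% of each array. Within a group, the arrays differed by a median SD per gene of 0.0751 for WT, 0.0888 for CD11c-negative and 0.0700 for CD11c-positive cells. A spot differed between arrays of the same group and slide by a median SD of 0.0247 to 0.0390, less than the 0.0583 to 0.0658 by which repeated spots of a probe differed within an array. Nothing says that the arrays came from separate pools of mice, and all p-values rest on the spread between these arrays alone, possibly a technical one. Itgax, which encodes CD11c, had a mean of 4.21 in WT, 5.93 in CD11c-negative and 7.29 in CD11c-positive cells, and Adgre1, which encodes F4/80, stood at 7.34, 7.74 and 7.31. The single probe for Mc4r was above background on 0 of 15 arrays and does not check the genotype.

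The 68 members stood a median of 2.11 log2 above WT (from 1.01 to 5.45, the upper end against WT arrays below background) and a median of 1.54 above the CD11c-positive cells (from 1.01 to 3.50, the upper end likewise against arrays below background), against medians of 0.13 and -0.01 over all genes measured. In 63 of them every CD11c-negative array lay above all arrays of both other groups. That both medians lie above 1 follows from the rule, which works on group means and makes such separation likely without fixing it. The share of all genes with that separation is not given here, so the 63 has no background beside it. For 54 members the mean of the CD11c-positive cells lay between WT and the CD11c-negative cells, and for 14 it lay below WT. All 5 CD11c-negative arrays were above background for 61 members, all 5 CD11c-positive arrays for 49 and all 5 WT arrays for 39. There were 12 members that passed the filter on dim probes through the CD11c-negative cells alone, where the rule needs them to be high. In 8 members no WT array was above background, so that only a lower bound of the fold over WT can be given, computed against the lowest signal that counted as above background on each WT array or, where that is higher, against the level of the gene itself. With these 8 at their bound the median over WT was 2.01.

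**Figure D1:**
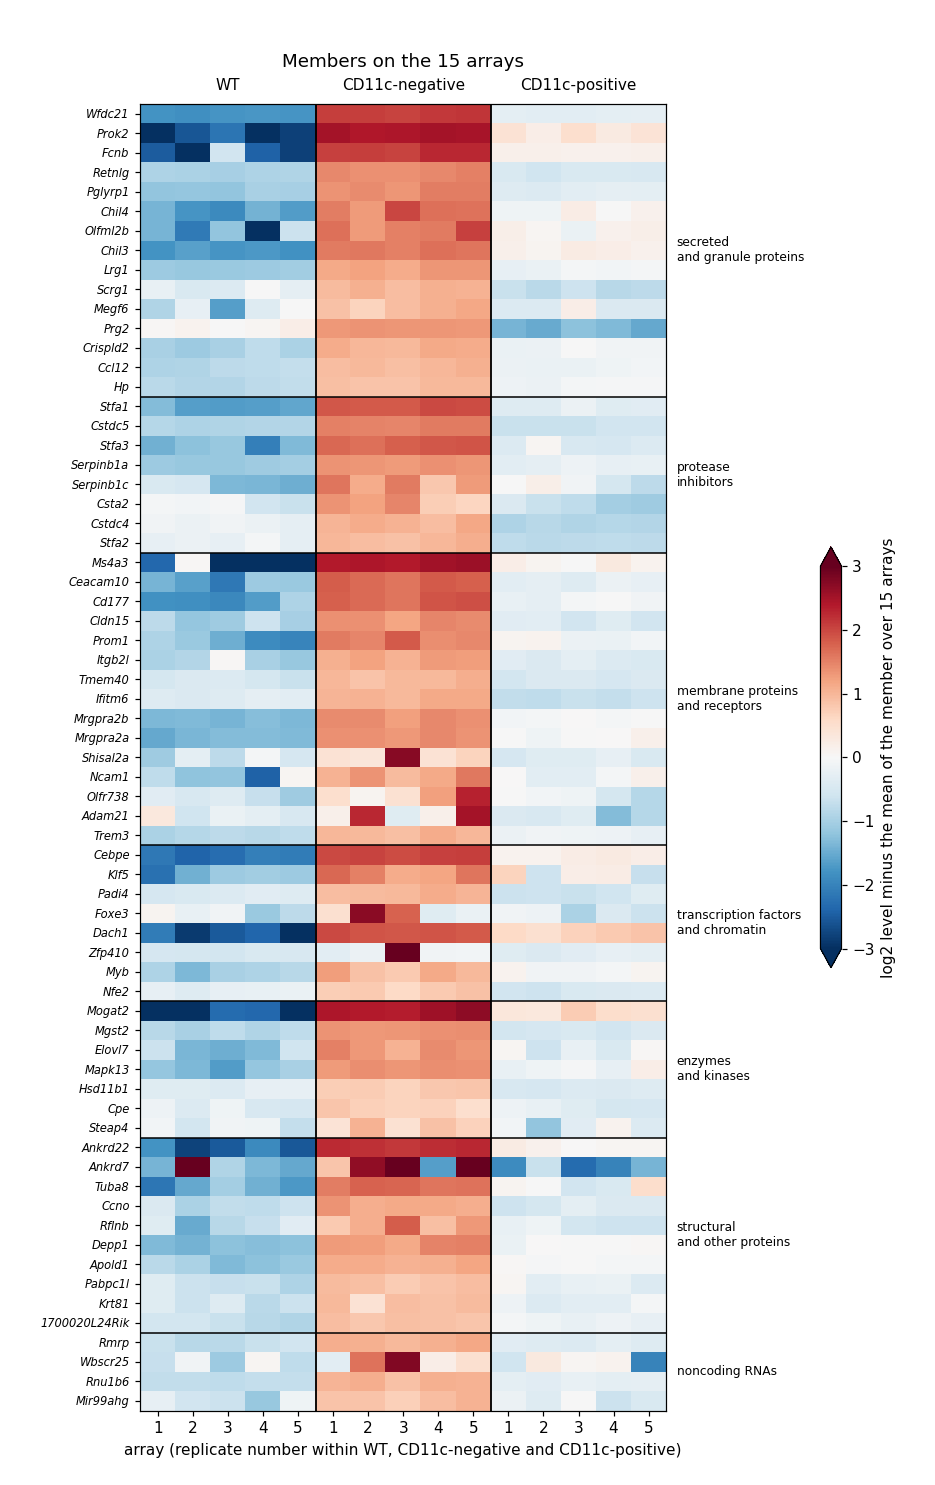
Log2 level of 67 members (rows, grouped by what the gene encodes) on the 15 arrays (columns), minus the mean of the member over the 15 arrays; red is above that mean and blue below, and the colours end at 3 and -3. The 5 CD11c-negative arrays are red in nearly every row, the rule having chosen the rows for that, while a few rows such as Zfp410, Shisal2a and Ankrd7 owe their red to 1 or some of the 5 arrays.

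**Figure D2:**
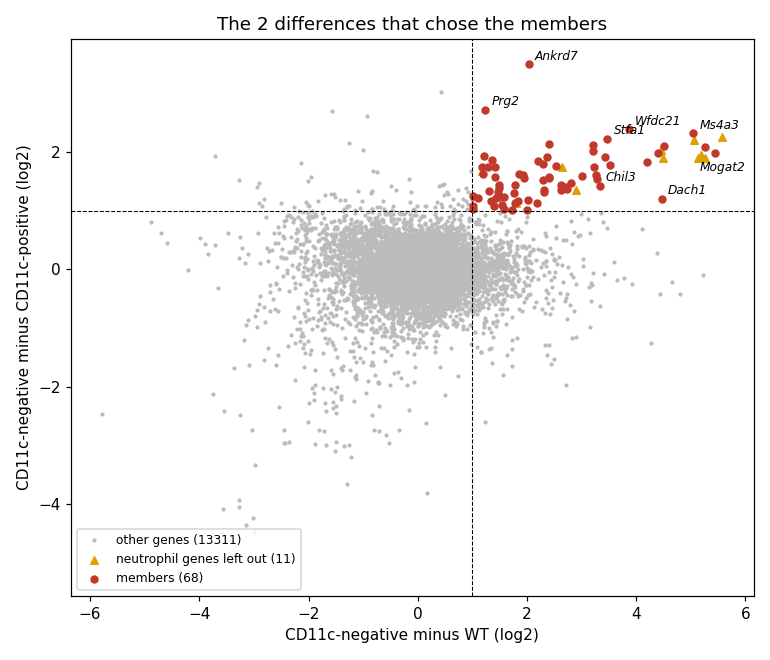
Difference of the CD11c-negative mean from WT (horizontal axis, log2) and from CD11c-positive cells (vertical axis, log2) for the 68 members, the 11 neutrophil genes set aside and the other 13311 genes; dashed lines mark the cut at 1. The outermost members, Mogat2 to the right and Ankrd7 at the top, were not above background in WT and in CD11c-positive cells respectively, so their places there are not measured distances (at least 14.6-fold over WT for Mogat2 and at least 2.87-fold over CD11c-positive cells for Ankrd7).

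The rule does not fix the direction in which the CD11c-positive cells differ from WT, and this difference was tested with limma over all 13390 genes. It did use the means of both groups, however, so the members are not a neutral sample for this difference. The shares over all genes are given beside the members as a background, and the members as a set were not tested. Of the 68 members, 46 were higher in CD11c-positive than in WT cells, 9 were lower and 13 did not pass (adjusted p under 0.05). Over all genes 51.4% were called higher and 26.3% lower, so most genes differ between these groups (66.2% of all calls were higher, and 54.4% after quantile normalization, where 46 and 7 members were called) and the direction and size say more than the call. At least 2-fold higher calls were made for 25 members and 6.65% of all genes, and at least 2-fold lower calls for 1 member and 7.02% of all genes. With the members that no WT array measured held at their bound, or at 0 where the CD11c-positive signal gave none, 22 were at least 2-fold higher. The median difference of the members was 0.67 (0.51 with such members at their bound), against 0.16 for all genes. The WT and CD11c-positive arrays did not overlap for 45 of the 68 members and for 69.3% of all genes. With slide as a block the counts were again 46 and 9, on slide 1 alone 43 and 9, and on slide 2 alone 45 and 8.

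By the fitted difference, the 5 members with the largest higher calls were Mogat2, Dach1, Prok2, Ms4a3 and Fcnb, an order that rests on WT levels below background on all 5 arrays for the first 3 of them and on 3 of 5 for the other two. Among members measured on all 5 WT arrays, Cebpe had the largest difference. Mogat2, an acyltransferase that makes diacylglycerol, was 3.45 ± 0.221 log2 (SE, n = 5 per group; limma adjusted p = 2.08e-09) higher in the CD11c-positive than in WT cells. Since no WT array measured it, this means at least 3.68-fold higher. Dach1, a transcriptional corepressor, differed by 3.26 ± 0.136 log2 (SE, n = 5 per group; limma adjusted p = 1.51e-11), at least 3.41-fold, and Prok2 by 3.17 ± 0.166 log2 (SE, n = 5 per group; limma adjusted p = 2.04e-10), at least 2.57-fold. The other kept probe of Dach1 differed by only 0.63 log2. It was above background on 1 WT array, 4 CD11c-negative arrays and 0 CD11c-positive arrays, so the bound rests on the brightest probe alone. Ms4a3 was 2.73 ± 0.561 log2 (SE, n = 5 per group; limma adjusted p = 4.41e-04) higher, yet 1 WT array overlapped the CD11c-positive arrays, and on slide 1 alone the adjusted p was 0.0738. Fcnb was 2.42 ± 0.335 log2 (SE, n = 5 per group; limma adjusted p = 1.07e-05) higher. Ankrd22 and Cebpe stood at 2.40 ± 0.154 and 2.37 ± 0.0600.

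The 9 members that were lower in CD11c-positive than in WT cells were Prg2, Cstdc4, Stfa2, Csta2, Scrg1, Ifitm6, Nfe2, Padi4 and Hsd11b1. Prg2, which encodes the major basic protein of eosinophil granules, was -1.48 ± 0.0542 log2 (SE, n = 5 per group; limma adjusted p = 3.32e-12) and the only member called at least 2-fold lower. The stefin-family genes Cstdc4, Stfa2 and Csta2 were lower by -0.72 ± 0.0435, -0.58 ± 0.0458 and -0.51 ± 0.186, and Scrg1, a secreted protein first described in scrapie-infected brain, by -0.46 ± 0.0741. For Csta2 the adjusted p of 0.0224 did not hold when any of 5 single arrays was left out (0.0535 to 0.0582). Nfe2, a transcription factor of megakaryocytes and red cell precursors, stood at -0.24 ± 0.0540, and Hsd11b1, which regenerates active corticosterone, at -0.11 ± 0.0398.

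**Figure D3:**
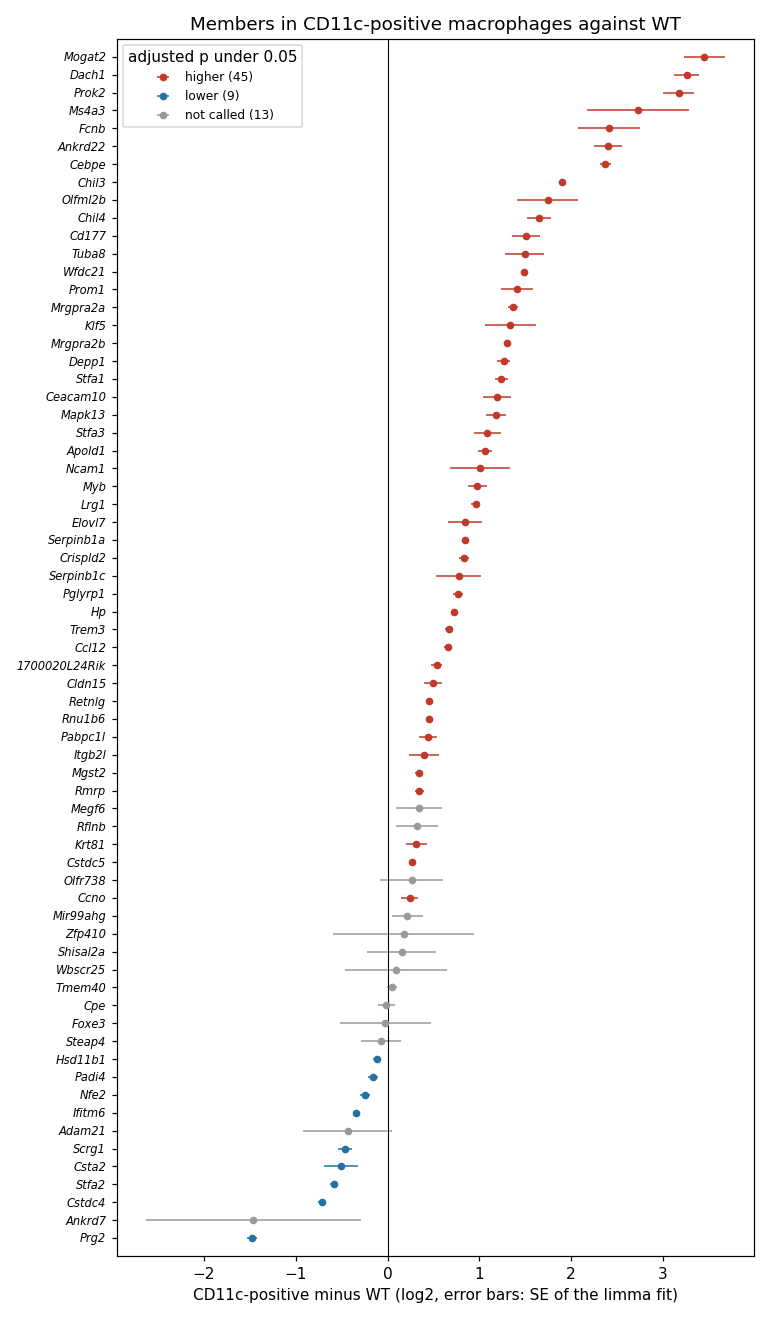
Difference between CD11c-positive and WT cells (log2, horizontal axis) for 67 members, with the SE of the limma fit as error bar; red members were called higher (45), blue lower (9), grey did not pass (13). Most members lie right of 0, up to Mogat2 at 3.45 (no WT array above background), and Prg2 lies furthest left among the called members at -1.48.

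Secreted and granule proteins made up 15 members, of which 12 were higher in CD11c-positive than in WT cells, 2 were lower and 1 did not pass. Here and for each class below, the shares of all genes called in this comparison were 51.4% higher and 26.3% lower. Wfdc21, which encodes a small secreted protein with a whey acidic protein domain, had the greatest peak of all members. Its log2 levels were 1.04, 1.00, 1.06, 1.09 and 1.07 on the WT arrays, 4.91, 4.90, 4.87, 4.97 and 4.97 on the CD11c-negative arrays and 2.54, 2.51, 2.53, 2.54 and 2.56 on the CD11c-positive arrays. The 3 groups did not overlap, and the CD11c-negative mean was 14.6-fold over WT and 5.23-fold over the CD11c-positive cells.

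Prok2, a prokineticin that myeloid cells secrete and that acts through G protein-coupled receptors, stood at -6.60, -5.77, -5.41, -6.33 and -6.00 on the WT arrays, -0.72, -0.81, -0.79, -0.70 and -0.74 on the CD11c-negative arrays and -2.78, -3.01, -2.71, -2.95 and -2.80 on the CD11c-positive arrays. No WT array was above background, and the CD11c-negative cells were at least 11-fold higher than WT. For Fcnb, or ficolin B, a lectin that starts the complement cascade and is stored in granules of myeloid cells, the levels were -4.20, -4.75, -2.28, -4.13 and -4.50 on the WT arrays, 0.35, 0.37, 0.32, 0.56 and 0.57 on the CD11c-negative arrays and -1.54, -1.55, -1.57, -1.58 and -1.56 on the CD11c-positive arrays. WT array 3 stood well above the other 4 WT arrays, of which few reached background, and still below every CD11c-positive array. Retnlg, the resistin-like cytokine gene of neutrophils, gave 3.05, 3.04, 3.00, 3.07 and 3.09 on the WT arrays, 5.42, 5.35, 5.37, 5.43 and 5.51 on the CD11c-negative arrays and 3.54, 3.40, 3.53, 3.53 and 3.52 on the CD11c-positive arrays. Its CD11c-positive arrays lay 0.46 ± 0.0358 above WT, a small step beside the 1.91 that separated them from the CD11c-negative arrays.

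Pglyrp1 encodes a peptidoglycan-binding protein of neutrophil granules that kills bacteria. Its levels were 0.24, 0.27, 0.24, 0.44 and 0.42 on the WT arrays, 2.78, 2.83, 2.76, 2.96 and 2.97 on the CD11c-negative arrays and 1.05, 1.01, 1.12, 1.15 and 1.13 on the CD11c-positive arrays, 3 ranges with no overlap, and the CD11c-positive cells were 0.77 ± 0.0551 log2 (SE, n = 5 per group; limma adjusted p = 7.74e-09) above WT. The chitinase-like genes Chil3 (also known as Ym1) and Chil4 (Ym2) lie side by side on chromosome 3 and have near-identical sequences, so that a probe may read both. Chil3 was found at 3.26, 3.42, 3.28, 3.33 and 3.23 on the WT arrays, 6.62, 6.63, 6.57, 6.70 and 6.66 on the CD11c-negative arrays and 5.19, 5.14, 5.29, 5.25 and 5.17 on the CD11c-positive arrays. The CD11c-negative cells exceeded WT 10.1-fold, and the CD11c-positive cells were 1.90 ± 0.0397 log2 (SE, n = 5 per group; limma adjusted p = 6.20e-15) above WT. Chil4 showed the same order, with means of -3.66 ± 0.228 (SD), -0.40 ± 0.256 and -2.01 ± 0.159.

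Hp encodes haptoglobin, the plasma protein that binds free haemoglobin, which neutrophils and monocytes also store. It was measured at 4.25, 4.18, 4.18, 4.27 and 4.31 on the WT arrays, 5.95, 5.91, 5.92, 6.04 and 6.03 on the CD11c-negative arrays and 4.90, 4.88, 5.00, 5.03 and 5.02 on the CD11c-positive arrays, close to the cut against the CD11c-positive cells (1.01) but with no overlap. Prg2 gave -1.85, -1.79, -1.90, -1.84 and -1.70 on the WT arrays, -0.59, -0.56, -0.58, -0.57 and -0.59 on the CD11c-negative arrays and -3.30, -3.41, -3.13, -3.21 and -3.44 on the CD11c-positive arrays. The CD11c-positive arrays were all below the WT arrays, as they were for Scrg1. The other secreted proteins were Lrg1, a leucine-rich glycoprotein of neutrophils and liver, Crispld2, which binds lipopolysaccharide, the CCR2 ligand Ccl12, Olfml2b, Megf6 and Scrg1. They exceeded WT by 1.29 (Scrg1) to 3.28 (Olfml2b, which no WT array measured and which was at least 4.31-fold higher). Lrg1, Crispld2 and Ccl12 were above WT in the CD11c-positive cells by 0.96 ± 0.0482, 0.84 ± 0.0557 and 0.66 ± 0.0449, while Megf6 did not pass (0.34, adjusted p = 0.224).

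Protease inhibitors formed 8 members, 6 of the stefin A family and 2 of the Serpinb1 family. Stefins are small cytosolic inhibitors of cysteine cathepsins, and in the mouse they form a cluster of near-copies on chromosome 16. The 6 members, Cstdc4, Csta2, Stfa1, Cstdc5, Stfa2 and Stfa3, all lie within 1 stretch of 10 protein-coding genes there, and the other 4 genes of the stretch (Csta3, Cstdc3, Cstdc6 and Gm7260) were not measured here. Array probes may not tell such copies apart, so the levels of single family members are uncertain. The bases just before the start of each gene are shown, because those of 5 of the 6 genes share a run. They were taken from RefSeq (GRCm38.p6), the last 100 bases before the start, read 5′ to 3′ on the strand of the gene, with the longest run common to 5 of the promoters in capitals.

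Stfa1: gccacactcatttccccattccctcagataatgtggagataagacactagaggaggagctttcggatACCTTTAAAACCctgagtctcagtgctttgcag
Stfa2: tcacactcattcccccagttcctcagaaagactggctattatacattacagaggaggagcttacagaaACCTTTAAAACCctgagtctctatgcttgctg
Stfa3: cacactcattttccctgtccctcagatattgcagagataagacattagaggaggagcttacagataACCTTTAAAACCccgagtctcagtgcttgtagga
Cstdc4: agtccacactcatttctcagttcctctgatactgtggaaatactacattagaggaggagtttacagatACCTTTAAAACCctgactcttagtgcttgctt
Cstdc5: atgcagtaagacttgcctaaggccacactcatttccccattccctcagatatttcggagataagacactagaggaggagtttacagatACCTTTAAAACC
Csta2: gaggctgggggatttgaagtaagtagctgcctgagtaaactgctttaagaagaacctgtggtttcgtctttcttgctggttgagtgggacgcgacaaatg
The stretches are chr16:36277048-36277147, plus strand for Stfa1, chr16:36408364-36408463, minus strand for Stfa2, chr16:36455393-36455492, minus strand for Stfa3, chr16:36184112-36184211, plus strand for Cstdc4, chr16:36367571-36367670, minus strand for Cstdc5 and chr16:36221462-36221561, plus strand for Csta2. The shared run of 12 bases is not in the 250 bases before Csta2, and 0.0407% of all 27025 genes with a promoter in the table hold it on either strand, 11 genes in all, most of them with stefin or cystatin names. Over the 250 bases before the start, Stfa1 and Cstdc5 were 96.1% identical in the aligned bases, the 5 promoters with the run were 75.9% to 96.1% identical to each other, and Csta2 was 68.6% to 72.8% identical to them.

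The levels of the 6 genes fell into different patterns below their shared peak. Stfa1 had -2.19, -2.55, -2.57, -2.53 and -2.45 on the WT arrays, 0.99, 0.96, 0.95, 1.10 and 1.07 on the CD11c-negative arrays and -1.27, -1.27, -1.05, -1.26 and -1.24 on the CD11c-positive arrays, a rise over WT of 11.1-fold. Stfa3 was at -3.96, -3.74, -3.64, -4.56 and -3.83 on the WT arrays, -0.80, -0.86, -0.73, -0.64 and -0.63 on the CD11c-negative arrays and -2.91, -2.45, -2.99, -3.02 and -2.92 on the CD11c-positive arrays. In both the CD11c-positive cells were about 2-fold over WT, by 1.24 ± 0.0681 log2 (SE, n = 5 per group; limma adjusted p = 3.47e-10) for Stfa1 and 1.09 ± 0.151 for Stfa3. Cstdc5 stood at -0.73, -0.81, -0.80, -0.77 and -0.77 on the WT arrays, 1.62, 1.60, 1.57, 1.68 and 1.68 on the CD11c-negative arrays and -0.54, -0.55, -0.54, -0.46 and -0.45 on the CD11c-positive arrays, and its CD11c-positive cells were above WT by only 0.27 ± 0.0307.

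Stfa2, in contrast, gave -0.01, 0.06, -0.01, 0.18 and -0.05 on the WT arrays, 1.22, 1.15, 1.11, 1.22 and 1.33 on the CD11c-negative arrays and -0.53, -0.58, -0.56, -0.52 and -0.55 on the CD11c-positive arrays. Its CD11c-positive arrays all lay below WT, by -0.58 ± 0.0458 log2 (SE, n = 5 per group; limma adjusted p = 2.16e-08). Cstdc4 and Csta2 had the same order, with means of -0.49 ± 0.0716 (SD), 0.73 ± 0.0861 and -1.21 ± 0.0377 for Cstdc4, and -3.32 ± 0.307, -1.95 ± 0.366 and -3.82 ± 0.262 for Csta2 in WT, CD11c-negative and CD11c-positive cells. The WT and CD11c-positive arrays of Csta2 overlapped. By the test, 3 neighbours (Stfa1, Stfa3 and Cstdc5) were higher and 3 (Stfa2, Cstdc4 and Csta2) lower in the CD11c-positive than in the WT cells, while all 6 were highest in the CD11c-negative cells.

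Serpinb1a encodes an inhibitor of the serine proteases of neutrophil granules, among them elastase, cathepsin G and proteinase 3. Its means were 0.42 ± 0.0511 (SD) in WT, 2.83 ± 0.0370 in CD11c-negative and 1.26 ± 0.0580 in CD11c-positive cells, and the last exceeded WT by 0.84 ± 0.0336 log2 (SE, n = 5 per group; limma adjusted p = 8.86e-12). Its neighbour and near-copy Serpinb1c on chromosome 13 showed the same order with more spread (-4.003 ± 0.507, -1.70 ± 0.325 and -3.23 ± 0.396), and its WT and CD11c-positive arrays overlapped.

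**Figure D4:**
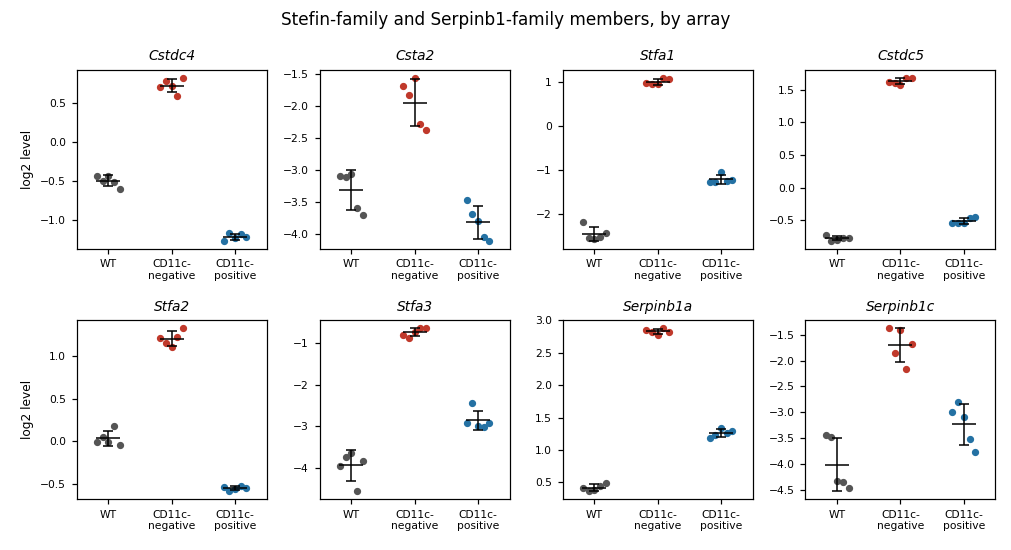
Log2 level of the 6 stefin-family members and the 2 Serpinb1-family members on each array (points), with the mean and SD of each group (black), n = 5 per group; each panel has its own vertical axis. The CD11c-negative arrays are highest in every panel, and the CD11c-positive arrays lie above WT for Stfa1, Cstdc5, Stfa3 and Serpinb1a but below it for Cstdc4 and Stfa2, while those of Csta2 overlap WT with a lower mean.

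Membrane proteins and receptors were the largest class with 16 members, of which 11 were higher in CD11c-positive than in WT cells, 1 was lower and 4 did not pass. Ms4a3, a membrane protein known as a marker of granulocyte-monocyte progenitors, stood at -4.05, -1.65, -4.87, -4.77 and -6.06 on the WT arrays, 0.70, 0.73, 0.68, 0.84 and 0.89 on the CD11c-negative arrays and -1.48, -1.60, -1.70, -1.39 and -1.58 on the CD11c-positive arrays. WT array 2 lay far above the other WT arrays, and the CD11c-negative arrays were nevertheless more than 2 above every other array. Cd177, a glycoprotein anchored on the neutrophil surface, had -2.27, -2.29, -2.38, -2.13 and -1.36 on the WT arrays, 1.36, 1.25, 1.16, 1.45 and 1.49 on the CD11c-negative arrays and -0.66, -0.71, -0.49, -0.46 and -0.55 on the CD11c-positive arrays. The next protein-coding gene on chromosome 7, Ceacam10 of the carcinoembryonic antigen family, gave -3.92, -4.16, -4.68, -3.62 and -3.64 on the WT arrays, -0.72, -0.84, -0.92, -0.70 and -0.75 on the CD11c-negative arrays and -2.85, -2.81, -2.91, -2.71 and -2.77 on the CD11c-positive arrays. Neither gene had overlapping groups, and the CD11c-positive cells exceeded WT by 1.51 ± 0.154 and 1.19 ± 0.155.

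Itgb2l encodes an integrin beta chain like that of the leukocyte integrins. It was measured at -3.32, -3.25, -2.34, -3.34 and -3.50 on the WT arrays, -1.30, -1.17, -1.33, -1.09 and -1.11 on the CD11c-negative arrays and -2.71, -2.79, -2.66, -2.78 and -2.82 on the CD11c-positive arrays. WT array 3 reached above the CD11c-positive arrays, and the call of 0.40 ± 0.164 log2 (SE, n = 5 per group; limma adjusted p = 0.0387) did not hold when any of 9 single arrays was left out (adjusted p from 0.0503 to 0.103). Ifitm6, an interferon-induced transmembrane protein of monocytes and neutrophils, had 4.29, 4.23, 4.29, 4.40 and 4.37 on the WT arrays, 5.68, 5.72, 5.64, 5.81 and 5.81 on the CD11c-negative arrays and 3.95, 3.92, 4.01, 3.96 and 4.04 on the CD11c-positive arrays. As for Prg2 and Stfa2, the CD11c-positive arrays were all below WT, by -0.34 ± 0.0413 log2 (SE, n = 5 per group; limma adjusted p = 2.74e-06).

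The Mas-related G protein-coupled receptors Mrgpra2a and Mrgpra2b are adjacent near-copies on chromosome 7, and the 250 bases before their starts were identical. They moved alike, 2.74 and 2.71 above WT, and the CD11c-positive cells were 1.37 and 1.31 above WT. Trem3, an activating receptor of myeloid cells, exceeded WT by 1.83 and the CD11c-positive cells by 1.17. Prom1, or CD133, was 3.01 above WT. The adhesion molecule Ncam1 was above background on 2 WT arrays and was at least 3.89-fold over WT. Its other probes were not above background on any array of any group. Cldn15, a tight-junction protein, and Tmem40 were 2.29 and 1.49 above WT, and the WT and CD11c-positive levels of Tmem40 overlapped, with a difference of 0.05 ± 0.0539. Shisal2a, the olfactory receptor gene Olfr738 and the testis protease gene Adam21, owed their place to 1 or 2 arrays and are described further on.

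Among the 8 members that encode transcription factors or chromatin proteins, 4 were higher in CD11c-positive than in WT cells, 2 were lower and 2 did not pass. That split was near the shares of all genes, 51.4% higher and 26.3% lower. Cebpe encodes C/EBP-epsilon, which drives the late steps of granulocyte maturation and the genes of secondary granules. Its log2 levels were -0.80, -1.05, -0.93, -0.70 and -0.75 on the WT arrays, 3.32, 3.37, 3.30, 3.39 and 3.42 on the CD11c-negative arrays and 1.44, 1.44, 1.56, 1.62 and 1.55 on the CD11c-positive arrays. This was an 18.5-fold rise over WT with little spread, and the CD11c-positive cells were 2.37 ± 0.0600 log2 (SE, n = 5 per group; limma adjusted p = 5.23e-14) above WT. Myb, a transcription factor of haematopoietic progenitors, was dim, at -3.98, -4.40, -4.02, -3.98 and -3.88 on the WT arrays, -1.81, -2.18, -2.28, -1.93 and -2.09 on the CD11c-negative arrays and -2.96, -3.16, -3.17, -3.11 and -2.98 on the CD11c-positive arrays. No group overlapped another, and 2 of 5 WT arrays were above background.

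Padi4 encodes the enzyme that turns arginines of histones into citrulline when neutrophils cast out their chromatin. It had -0.64, -0.62, -0.57, -0.49 and -0.53 on the WT arrays, 0.79, 0.80, 0.82, 0.98 and 0.88 on the CD11c-negative arrays and -0.80, -0.78, -0.82, -0.74 and -0.52 on the CD11c-positive arrays. The CD11c-positive and WT arrays overlapped, and the difference of -0.16 ± 0.0559 log2 (SE, n = 5 per group; limma adjusted p = 0.0173) did not pass on slide 2 alone (adjusted p = 0.130) or after quantile normalization (0.104). Nfe2 was 1.02 above WT, hardly inside the cut. Dach1 was at least 7.87-fold and Klf5, a Krüppel-like factor of epithelia and myeloid cells, at least 2.31-fold above WT. Both are bounds, as no WT array was above background for the probe that stood for each gene. Foxe3 and Zfp410 are taken up with the members that rest on 1 or a few arrays.

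Enzymes and kinases made up 7 members, with 4 higher in CD11c-positive than in WT cells, 1 lower and 2 that did not pass. Such small counts stand beside 51.4% higher and 26.3% lower over all genes. Mogat2 was above background on no WT array. Its levels were -6.50, -5.96, -5.14, -5.17 and -6.17 on the WT arrays, -0.40, -0.43, -0.46, -0.27 and -0.14 on the CD11c-negative arrays and -2.48, -2.49, -2.05, -2.29 and -2.35 on the CD11c-positive arrays, and the CD11c-negative cells were at least 14.6-fold over WT. On the list of genes for lipid uptake, storage and lipolysis it was the only member among 17 genes measured, and the brightest others, Lpl and Fabp5, had means of 5.99 and 4.53 in WT, 7.42 and 6.99 in CD11c-negative and 7.67 and 7.64 in CD11c-positive cells. Mgst2, a microsomal glutathione transferase, gave -0.14, -0.29, -0.07, -0.21 and -0.08 on the WT arrays, 2.04, 2.00, 2.01, 2.05 and 2.09 on the CD11c-negative arrays and 0.14, 0.19, 0.24, 0.12 and 0.24 on the CD11c-positive arrays. Its CD11c-positive cells were 0.35 ± 0.0422 above WT, and the CD11c-negative arrays stood 1.85 above them. Mapk13, the p38-delta kinase, was 2.62 above WT. Elovl7, a fatty acid elongase, was above background on 1 WT array and was at least 3.49-fold over WT. Hsd11b1, the carboxypeptidase gene Cpe and Steap4, a metalloreductase, lay 1.01 to 1.10 above WT. Steap4 was above background on 1 WT array, and its bound was 1.56-fold over WT.

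Of 10 structural and other proteins, 8 were higher in CD11c-positive than in WT cells and 2 did not pass. Ankrd22, an ankyrin repeat protein, had -4.13, -5.13, -4.86, -4.25 and -4.89 on the WT arrays, -0.11, -0.15, -0.22, -0.13 and -0.09 on the CD11c-negative arrays and -2.10, -2.22, -2.34, -2.28 and -2.29 on the CD11c-positive arrays. A single WT array was above background, and the CD11c-positive cells were 2.40 ± 0.154 log2 (SE, n = 5 per group; limma adjusted p = 2.04e-09) higher. The alpha-tubulin gene Tuba8 was at least 8.07-fold above WT. Depp1, a protein induced by starvation and progestin, and Apold1, an endothelial early response protein, were 2.63 and 2.19 above WT. Ccno, an atypical cyclin, Rflnb, a filamin-binding protein, the oocyte poly(A)-binding protein Pabpc1l, the hair keratin Krt81 and 1 gene known only by a clone name were 1.40 to 1.93 above WT. Both ends of this range, Krt81 and Rflnb, were above background on 1 WT array, and their bounds were 2.37-fold and 2.77-fold over WT. The 4 noncoding RNAs were Rmrp, the RNA of the RNase MRP complex, Rnu1b6, a U1 spliceosomal RNA, Mir99ahg and Wbscr25. Rmrp and Rnu1b6 were bright and tight, 1.78 and 1.76 above WT and 0.34 ± 0.0480 and 0.45 ± 0.0341 above WT in the CD11c-positive cells.

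Some members rest on 1 or a few of the arrays. Zfp410, a zinc finger protein, stood at 0.61, 0.57, 0.54, 0.64 and 0.62 on the WT arrays, 0.79, 0.92, 5.98, 1.01 and 1.03 on the CD11c-negative arrays and 0.74, 0.68, 0.77, 0.85 and 0.82 on the CD11c-positive arrays. Array 3 of the CD11c-negative group alone was high, the gene left the set without that array, and its other probe differed by 0.07 from WT and -0.04 from CD11c-positive cells. The ankyrin repeat gene Ankrd7 gave -5.92, -0.31, -5.43, -5.88 and -6.07 on the WT arrays, -3.70, -1.86, -0.28, -6.18 and -1.40 on the CD11c-negative arrays and -6.41, -5.20, -6.84, -6.53 and -5.93 on the CD11c-positive arrays. Its 3 groups overlapped, and its difference between CD11c-positive and WT cells of -1.46 ± 1.17 did not pass (limma adjusted p = 0.268). Shisal2a was between -4.13 and -3.84 on 4 of the CD11c-negative arrays and -1.76 on array 3. In Wbscr25, Foxe3, Olfr738 and Adam21 too, 1 or 2 of the CD11c-negative arrays were 1 or more above the rest, and the SD of that group was 1.25, 1.33, 0.879 and 1.33. Whichever single array was left out, 57 of the 68 genes stayed members.

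Near the cut the choice of members was fine-grained. The 5 members just inside it were Hp, Steap4, Cpe, Nfe2 and Myb, with the lower of their 2 differences at 1.01, 1.01, 1.02, 1.02 and 1.02. The 5 genes just outside were Ccl7, Stfa2l1, Prss29, Orm1 and Tnfsf18, at 0.997, 0.981, 0.959, 0.956 and 0.945. Of these, Stfa2l1 is a further stefin-like gene. Where a member had a 2nd probe above background (7 genes), this probe was at least 1 above both other groups for 5 and above both for 6, Zfp410 being the exception. These probes share the arrays with the first.

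The members were read against 27 lists of marker and function genes, and 51 of the 68 were on none. Of 19 cell type lists, 6 held a member and 13 held none, among them the lists of Kupffer cells, lipid-associated macrophages, B, T and natural killer cells, dendritic cells, hepatocytes, endothelial cells and stellate cells. On the list of granulocyte precursors, 9 of 10 genes were measured: 4 were members (Ms4a3, Fcnb, Cebpe and Myb), 3 were among the genes set aside (Mpo, Prtn3 and Ctsg), and the other 2, Elane (neutrophil elastase) and Gfi1 (a repressor needed for granulocytes), were called higher in CD11c-negative than in WT cells, by 1.22 ± 0.0675 and 0.34 ± 0.0735. Over all genes, 48.3% were called higher and 28.5% lower in that comparison. The summed level of this list (log2 of the sum of the unlogged normalized signals of its measured genes) was 2.66 to 2.91 on WT arrays, 5.56 to 5.63 on CD11c-negative and 3.999 to 4.12 on CD11c-positive arrays.

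On the list of secondary and tertiary granules, 12 of 14 genes were measured, 4 as members (Cd177, Padi4, Itgb2l and Pglyrp1) and 6 as genes set aside. Both others were called higher in CD11c-negative than in WT cells: Anxa1, an annexin of neutrophils and other cells, by 2.52 ± 0.0462, and Orm1, an acute-phase protein, by 1.505 ± 0.0680. The list's summed level was 4.75 to 4.91 in WT, 8.87 to 9.02 in CD11c-negative and 7.38 to 7.47 in CD11c-positive cells. Olfm4 and Ly6g, the surface marker by which mouse neutrophils are usually identified, had no named probe that passed the filter. Whether a named probe was lacking or was too dim is not given here.

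The list of mature neutrophils, with all 14 genes measured, behaved less evenly. It held 3 members (Retnlg, Stfa2 and Stfa3) and 2 genes set aside (S100a8 and S100a9). Of the other 9, 5 were called higher and 3 lower in CD11c-negative than in WT cells, and 7 were called lower and 0 higher in CD11c-positive than in CD11c-negative cells, where 29.9% of all genes were called higher and 23.2% lower. The brightest of the 9, Csf3r (the receptor for granulocyte colony-stimulating factor) and Fpr1 (a receptor for bacterial peptides), were lower in CD11c-negative than in WT cells, by -0.40 ± 0.0269 and -0.63 ± 0.0533. The summed level was 8.98 to 9.05 in WT, 10.4 to 10.5 in CD11c-negative and 9.23 to 9.30 in CD11c-positive cells. These summed levels include the members and the genes set aside, which were chosen for this peak, so they are no separate evidence of it. In sorted bulk samples, fewer cells of a type and less RNA per cell cannot be told apart, and the part of other cells in the members' levels was not tested.

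The 11 genes set aside were 1.17 (Mmp9) to 5.58 (Mpo) above WT and 1.13 (S100a9) to 2.26 (Mpo) above the CD11c-positive cells. Of these, 10 were higher in CD11c-positive than in WT cells, from 0.67 ± 0.0353 for S100a9 to 3.35 ± 0.0445 for Ngp, and Mmp9, the gelatinase, was lower by -0.51 ± 0.0457 (limma adjusted p = 9.22e-08). Mpo (myeloperoxidase), Prtn3 (proteinase 3) and Ctsg (cathepsin G), all of azurophil granules, were 3.32 ± 0.0385, 2.42 ± 0.0672 and 2.84 ± 0.0726 higher, beside 2.73 ± 0.561 for Ms4a3 and 2.42 ± 0.335 for Fcnb among the members. The secondary granule genes Camp, Ltf, Lcn2 and Mmp8 were 3.24 ± 0.0454, 3.23 ± 0.0387, 2.58 ± 0.0444 and 1.54 ± 0.0369 higher, and S100a8 0.90 ± 0.0401.

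Recruited monocytes were marked by 13 genes, of which 12 were measured and 3 were members (Chil3, Ifitm6 and Hp). Of the other 9, 6 were called higher and 1 lower in CD11c-negative than in WT cells, with Cx3cr1, a chemokine receptor of monocytes, at 5.05, 7.22 and 7.06 and Plac8 at 5.71, 5.50 and 5.22 in WT, CD11c-negative and CD11c-positive cells. The summed level of the list was 7.41 to 7.53, 8.82 to 8.98 and 8.28 to 8.37 in the same order. For this list and those below, the shares of all genes called in CD11c-negative against WT cells were 48.3% higher and 28.5% lower. The eosinophil, basophil and mast cell list had Prg2 as its member among 10 genes measured of 16. Prg3, Epx, Mcpt8, Fcer1a, Ms4a2 and Cma1 had no named probe that passed the filter. Its brightest others, Ear1, a ribonuclease of eosinophils and macrophages, and Hdc, the enzyme that makes histamine, had means of 5.30, 5.85 and 6.50, and 2.54, 3.13 and 2.05. Of its 9 other genes, 3 were called higher and 4 (Ccr3, Il5ra, Cpa3 and Mcpt4) lower in CD11c-negative than in WT cells, and 2 did not pass. The list of haematopoietic progenitors held Myb among 7 genes measured, beside Cd93 at 3.84, 5.67 and 5.87 and Cd34 at 2.85, 3.29 and 3.65. Of its 6 other genes, 2 (Cd93 and Cd34) were called higher and 3 (Kit, Meis1 and Gata2) lower in CD11c-negative than in WT cells, and Hoxa9 did not pass.

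Beside these, the antimicrobial and acute-phase list held 4 members (Hp, Wfdc21, Pglyrp1 and Retnlg) and 3 genes set aside among its 15 genes, all measured. All the other 8 were called higher in CD11c-negative than in WT cells, with a median of 0.83, and of these the brightest were the lysozyme genes Lyz2 (0.90 ± 0.0364) and Lyz1 (0.32 ± 0.0936). Against the CD11c-negative cells, the CD11c-positive cells were called lower for 5 of the 8, higher for 2 (Saa1 by 0.12 and Saa2 by 0.40), and 1 did not pass. The shares of all genes called there were 29.9% higher and 23.2% lower. Of the 15 Kupffer cell genes, none of which is a member, 1 was called higher and 13 lower in CD11c-negative than in WT cells. Their summed level was 11.7 to 11.9 in WT, 11.003 to 11.13 in CD11c-negative and 10.66 to 10.77 in CD11c-positive cells.

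**Figure D5:**
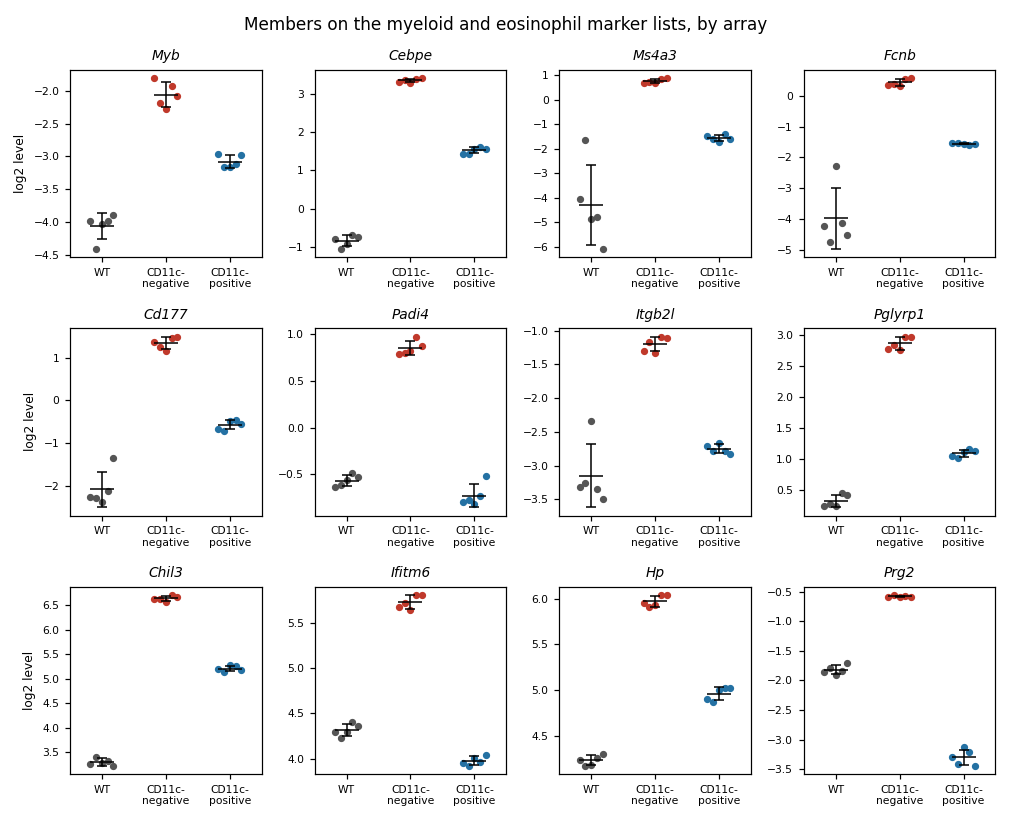
Log2 level on each array (points) of 12 members that stand on the marker lists of granulocyte precursors, neutrophil granules, recruited monocytes and eosinophils, with the mean and SD of each group (black), n = 5 per group; each panel has its own vertical axis. The CD11c-negative arrays are highest in every panel, and the CD11c-positive arrays lie at or below WT for Padi4, Ifitm6 and Prg2.

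The members also lie together on the chromosomes in places. Of the 64 protein-coding members, 14 fell into 5 stretches with at most 2 other protein-coding genes between neighbours. Beside the stefin cluster these were the pairs Chil3 and Chil4, Serpinb1a and Serpinb1c, Cd177 and Ceacam10, and Mrgpra2a and Mrgpra2b. Gene copies and shared probe sequence can go with the stefin cluster and with the Chil, Serpinb1 and Mrgpra2 pairs, and the part of either was not tested. How often measured genes lie this close in general was not counted.

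RefSeq promoters (GRCm38.p6) were given for 48 of the 68 members, and 6 short motifs were counted in the 250 bases before the start, on both strands. The PU.1 motif AGGAAGT was in 13 of 48 (27.1%), against 8.8% of all 27025 genes with a promoter. The C/EBP motif TTNNGNAA, in which N is any base, was in 26 of 48 (54.2%), against 40.3%. Both were found in 11 members (22.9%), against 3.79% of all genes. PU.1 is a transcription factor of macrophages and granulocytes. The AP-1 motif TGANTCA was in 16.7% of the members and 7.82% of all genes, the GATA motif AGATAA in 10.4% and 11.4%, the NF-kB motif (GGGA, any base, TTTCC) in 1 member, Pglyrp1 (2.08% and 0.414%), and the interferon-stimulated response element (GAAA, any 2 bases, GAAA) in 0 of 48 members and 3.46% of all genes. A match only says that these letters are present, and related genes such as both Chil and both Mrgpra2 genes are counted separately. The counts are a description with no test. The promoters of 3 members that hold both motifs, and of Ms4a3, which has a C/EBP match alone, are shown with the matches in capitals, 250 bases before the start, 5′ to 3′ on the strand of the gene.

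Fcnb: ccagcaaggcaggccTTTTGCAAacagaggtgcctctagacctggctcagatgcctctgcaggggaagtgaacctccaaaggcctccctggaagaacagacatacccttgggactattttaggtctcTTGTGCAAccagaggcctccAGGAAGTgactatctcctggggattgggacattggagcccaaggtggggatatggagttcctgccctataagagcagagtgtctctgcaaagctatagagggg
Chil3: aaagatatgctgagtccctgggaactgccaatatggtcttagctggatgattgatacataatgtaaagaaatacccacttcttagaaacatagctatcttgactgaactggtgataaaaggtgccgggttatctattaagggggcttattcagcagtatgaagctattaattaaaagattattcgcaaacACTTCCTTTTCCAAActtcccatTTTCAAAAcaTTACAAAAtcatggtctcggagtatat
Mrgpra2a: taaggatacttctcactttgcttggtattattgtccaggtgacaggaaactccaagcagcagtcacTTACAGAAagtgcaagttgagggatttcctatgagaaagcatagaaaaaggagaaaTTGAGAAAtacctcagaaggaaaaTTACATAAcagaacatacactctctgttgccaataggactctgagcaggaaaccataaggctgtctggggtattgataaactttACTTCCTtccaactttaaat
Ms4a3: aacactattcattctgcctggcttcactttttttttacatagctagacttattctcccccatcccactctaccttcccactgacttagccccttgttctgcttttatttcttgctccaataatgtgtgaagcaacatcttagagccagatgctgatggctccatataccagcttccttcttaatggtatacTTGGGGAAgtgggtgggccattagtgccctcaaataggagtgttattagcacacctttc
They lie at chr2:28084879-28085128, minus strand (Fcnb), chr3:106167565-106167814, minus strand (Chil3), chr7:47452165-47452414, minus strand (Mrgpra2a) and chr19:11640852-11641101, minus strand (Ms4a3). Fcnb has 2 C/EBP matches and 1 PU.1 match, and the promoter of Chil3 is 91.0% identical to that of Chil4 in the aligned bases.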

How the data were processed

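RNA of 15 samples of sorted mouse liver macrophages (3 groups of 5) was measured on Agilent one-colour arrays on 2 slides. Spot intensity was deposited as a processed signal in the scanner output, from Agilent Feature Extraction 10.7.3.1 per the submitters' processing notes, beside other columns of flags. The deposited table of log2 values, used as an alternative, matched the values below after each gene was centred on the median of the WT arrays (median absolute difference 0.00146).

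Outlier spots and control spots were left out, log2 signals were averaged over the spots of a probe, and the array's 75th percentile (358.6 to 562.4 units) was subtracted. Of 55681 probes, 26582 were named through RefSeq (GRCm38.p6) by accession. Probes well above background on at least 4 of 5 arrays of a group were kept (28175, of which 17342 were named), and the brightest stood for its gene (13390 genes). Precision is limited by the number of arrays.

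Groups were compared with limma 3.58.1 in R 4.3.3 (lmFit and eBayes on all 15 arrays, no covariates, 2-sided, Benjamini-Hochberg over all genes, adjusted p under 0.05), and the script was tested on simulated data. Replicate numbers were not used to pair the arrays in this fit. The alternatives were normexp correction (offset 50, on median spot and background signals), quantile normalization, other filters, slide, replicate number, probe choice, prior, the groups in the fit, the deposited values, a cut of 1.5 and each array left out. Members, lists and motifs were chosen with earlier results of these data known. Values on each array are given for the 15 members with the greatest peak (the lower of both differences) and for up to 4 members per list. Also named were the 5 largest called differences each way, the 5 genes on each side of the cut, and the 2 brightest other genes per list. The remaining members are named with single values or ranges, except 1 with a clone name and 1 that is not reported here. Promoters were aligned with Biopython 1.88.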

Additional observations from a re-analysis of the deposited data

Results flagged for a closer look

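In 18 of 201 groups of 5 arrays (67 members in 3 groups), 1 array stood apart from the other 4 by a larger share of the group's range than the critical value of Dixon's test, 0.71. Chance gives about 1 in 20 such groups. No cause was tested.

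Among WT arrays, the value that stood apart was high for Ankrd7 (-0.31 on array 2, next -5.43), Fcnb (-2.28 on array 3, next -4.13), Itgb2l (-2.34 on array 3, next -3.25) and Cd177 (-1.36 on array 5, next -2.13). It was low for Mrgpra2a (-1.73 on array 1), Myb (-4.40 on array 2) and Nfe2 (0.49 on array 2). Without WT array 3, Itgb2l stayed called in CD11c-positive against WT cells, whereas it lost its call without any of the other 4 WT arrays.

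Among CD11c-negative arrays, array 3 was high for Zfp410 (5.98, next 1.03) and for Shisal2a (-1.76, next -3.84) and low for Mrgpra2b (1.12, next 1.28). Array 1 was high for Ccno (-1.01) and array 2 low for Krt81 (-3.11). Zfp410 and Shisal2a left the set without array 3. Zfp410 then passed the test of CD11c-positive against WT cells (0.18, adjusted p = 0.00346 by limma).

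Among CD11c-positive arrays, the high values were those of Stfa1 (-1.05 on array 3), Stfa3 (-2.45 on array 2), Megf6 (-3.57 on array 3) and Padi4 (-0.52 on array 5). The low ones were those of Retnlg (3.40 on array 2) and Depp1 (-0.17 on array 1). These 6 members spanned 0.147 (Retnlg) to 0.631 (Megf6) within the group.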

How the results depend on the processing

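The counts of members higher and lower in CD11c-positive than in WT cells, 46 and 9, moved little under most alternatives: without any single array they ranged from 43 to 47 and from 8 to 9, and the number of members from 66 to 70, of which 64 to 68 were among the 68. A filter on all 15 arrays left 37 of the 68 members, with 27 called higher, and added none, since it leaves only genes measured on every array. With no filter 238 genes met the cut. Normexp background correction left 36 members, all among the 68, and the cause was not tested. A cut of 1.5 left 28. Quantile normalization kept 63 members and moved the share of higher calls over all genes from 66.2% to 54.4%, with the median of all genes from 0.16 to 0.05, while 46 members stayed higher and 7 lower. Leaving the cut of 1.5 aside, 26 members were kept in every alternative in which membership was recomputed.

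The main fit did not treat arrays of the same replicate number as pairs. Deviations of same-numbered CD11c-positive and WT arrays correlated at 0.27, 0.14, -0.17, 0.24 and 0.23. Those of CD11c-positive and CD11c-negative arrays correlated at 0.29, 0.20, -0.20, 0.24 and 0.23. CD11c-positive array 3 lay on slide 2 and array 3 of both other groups on slide 1. Correlations of differently numbered arrays are not given, so whether the numbers pair the arrays was not settled. With the replicate block the counts were 46 and 9, and with the replicate block and slide 45 and 9.

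Of the single members' differences between CD11c-positive and WT cells, 1826 values under an alternative had the same direction and call, 39 (12 genes) lost the call, 6 (4 genes) gained one and 2 reversed, Ccno to -0.000208 and Krt81 to -0.0398, both under normexp. Leaving out 1 array ended the calls of Itgb2l (9 arrays) and Csta2 (5 arrays), as given with these genes, of Ccno (WT array 2 or 4, or CD11c-positive array 3, adjusted p 0.0508 to 0.0687) and of Krt81 (WT array 4 or CD11c-positive array 5, 0.0542 and 0.0554). Without single arrays Cpe, Hp, Myb, Nfe2 and Steap4, all close to the cut, also left the set, as did Adam21, Foxe3, Olfr738, Shisal2a, Wbscr25 and Zfp410. Dim members have only bounds, so signal over background limits the folds of the 8 that no WT array measured. It also limits the folds of the members that few WT arrays measured.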

Other observations

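Of 10833 kept probes that the RefSeq table does not name, 32 also met the cut. They were not assigned to genes and enter none of the counts above.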
